A study of Mus musculus with 10 samples.

Results

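The 6 peroxiredoxins (Prdx1 to Prdx6), the copper-zinc and manganese superoxide dismutases (Sod1 and Sod2), catalase (Cat) and the cytosolic thioredoxin (Txn1) were followed in granulosa cells of mice given N-acetyl-L-cysteine. The 10 genes were chosen by symbol, and all 10 had a row among the 35087 rows named by a gene symbol in each of the 10 libraries. All 10 also passed the filter on low counts, which left 10945 genes for testing. N-acetyl-L-cysteine (NAC) is a thiol antioxidant and a source of cysteine. The NAC group (4 libraries) came from wild-type female C57B6/J mice, 3 weeks old, that received 150 mg/kg NAC in the peritoneum on 3 consecutive days. The saline group (6 libraries) came from mice of the same sex, age, strain and genotype that received normal saline on the same days. Ovaries of both groups were taken on day 4, granulosa cells were captured by laser microdissection, and polyadenylated RNA was amplified by the GEO-seq protocol for small inputs. No label links libraries to animals, so p-values reflect only how captured samples vary, and these may share animals.

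Superoxide dismutases convert superoxide, a by-product of respiration and steroid synthesis, to hydrogen peroxide. Catalase, in peroxisomes, and the peroxiredoxins, in several compartments, remove that peroxide. A peroxiredoxin is oxidised at a reactive cysteine by the peroxide it destroys. Prdx1, Prdx2, Prdx3 and Prdx5 are returned to the reduced state by thioredoxins and Prdx4 mainly by disulfide isomerases, whereas Prdx6 uses glutathione as its main reductant. Granulosa cells surround the oocyte, make estradiol, and die when a follicle becomes atretic. The title of the study sets HIF1 and Bcl-XL against FOXO1 and Bim in that loss.

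The stretches before the transcription start were read for letters that HIF1, FOXO factors and the antioxidant regulator NRF2 are known to bind. The RefSeq promoter table (GRCm38.p6) matched 9 of the 10 genes, with 250 bases before and 50 after the start. The antioxidant response element was searched as TGACNNNGC, the FOXO motif as GTAAACA and the hypoxia response element as ACGTG, each on both strands. Matches to the antioxidant element were found in 2 of the 9, Prdx1 and Sod1, against 12.4% of all 32851 promoters in the table. The hypoxia letters were found in 1 of the 9, Prdx4, against 19.6% of all promoters, and the FOXO letters in 0 of the 9, against 3.65%. The 3 stretches with a match are shown up to the first annotated exon, with the matched letters in capitals, because they are where these letters occur among the genes described here. The stretches lie, in the order below, at chr4:116685349-116685543 (+ strand), chr16:90220512-90220753 (+ strand) and chrX:155338475-155338710 (- strand).
Prdx1: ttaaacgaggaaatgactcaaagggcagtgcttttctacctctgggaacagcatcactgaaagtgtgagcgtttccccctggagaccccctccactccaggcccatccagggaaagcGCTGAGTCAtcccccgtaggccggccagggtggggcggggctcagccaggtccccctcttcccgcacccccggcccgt
Sod1: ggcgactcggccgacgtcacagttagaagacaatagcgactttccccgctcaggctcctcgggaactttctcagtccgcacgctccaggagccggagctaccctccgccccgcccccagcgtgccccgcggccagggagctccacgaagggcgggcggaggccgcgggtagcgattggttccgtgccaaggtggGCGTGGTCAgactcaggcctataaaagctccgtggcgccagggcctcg
Prdx4: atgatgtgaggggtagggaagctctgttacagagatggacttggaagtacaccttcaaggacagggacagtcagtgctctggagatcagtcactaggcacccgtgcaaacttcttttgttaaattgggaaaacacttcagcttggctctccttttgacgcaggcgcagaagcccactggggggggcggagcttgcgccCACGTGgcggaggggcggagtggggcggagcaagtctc
Both antioxidant matches read on the opposite strand, starting 133 bases before the start of Prdx1 and 56 before that of Sod1. The match in Prdx1 holds the letters TGACTCA on that strand, which is also an AP-1 motif. The RefSeq start of Prdx4 lies inside the GENCODE gene, and its stretch holds no annotated exon. In Prdx4 the 2 matches, one per strand, overlap in a single palindrome. A match of letters is a description of the sequence and does not show a binding site.

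Depth differed between libraries and set the precision of each value. Estimated reads numbered 116461 to 1667181 per NAC library, against 1340324 to 2488408 per saline library. The shallowest were NAC 2, with 509945 reads, and NAC 3, with 116461. Of all genes tested, NAC 2 had reads for 84.8% and NAC 3 for 85.1%, where the remaining 8 libraries had 97.7% to 99.5%. The granulosa label was met: reads of the 13 granulosa markers (among them Inha, Fshr and Foxl2) were found in both groups, for all 13 in 9 libraries and for 12 in NAC 2. Their summed level was 4779 to 10697 CPM in NAC libraries and 10202 to 38273 CPM in saline libraries, where CPM are reads scaled to library size with TMM factors for composition. Other cell types were also represented. Summed levels were 291 to 1951 CPM in NAC and 1.33 to 2255 CPM in saline for 18 oocyte markers, with Sohlh1 at 0 reads in all 10 libraries and Figla at 0 in NAC. For 17 stroma and theca markers they were 234 to 2852 CPM in NAC and 153 to 1462 in saline. For 6 endothelial markers they were 48.3 to 180.2 CPM in NAC and 9.01 to 44.1 in saline, so that these groups did not overlap. The lowest NAC value, in the shallow NAC 3, came from 2 of the 6 markers, and 0 of the 3 endothelial markers tested passed in edgeR. Immune markers (8) summed to 0 to 75.8 CPM in NAC and 0.901 to 25.6 in saline. Erythroid markers (7) summed to 0 to 856 CPM in NAC and 3.59 to 85.7 in saline, and surface epithelium markers (6) to 65.5 to 243.8 in NAC and 147 to 332 in saline. Among these, Slc4a1, Krt19, Upk3b and Msln were at 0 reads in saline.

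Per length, the cytosolic enzymes led and catalase was last. On deposited TPM (a level scaled to library size and corrected for transcript length), the medians in NAC libraries were 766 for Sod1, 761 for Prdx2, 679.6 for Prdx1, 468 for Txn1, 321 for Prdx4, 191 for Prdx6, 177 for Prdx3, 159.8 for Prdx5, 45.5 for Sod2 and 16.1 for Cat. In saline libraries the medians were 998 for Sod1, 833 for Prdx1, 782 for Prdx2, 473 for Txn1, 397 for Prdx6, 311 for Prdx4, 121 for Prdx5, 84.1 for Prdx3, 44.2 for Sod2 and 32.7 for Cat. Most neighbours in these orders overlapped. In NAC, ranges did not overlap only between Prdx5 and Sod2 and between Sod2 and Cat. In saline, they did not overlap only between Prdx2 and Txn1, Prdx4 and Prdx5, and Prdx3 and Sod2. Per length, the mitochondrial dismutase, Sod2, stood far under its cytosolic counterpart: Sod1 TPM was 11.4 to 24.4 times that of Sod2 in NAC libraries and 14.5 to 31.4 times in saline libraries. In CPM, which are not corrected for length, mean levels of Sod1 and Sod2 were 277 and 151 in NAC and 458 and 166 in saline. By median CPM in saline, Prdx1 ranked 1, Sod1 ranked 4 and Cat was again last.

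**Figure D1:**
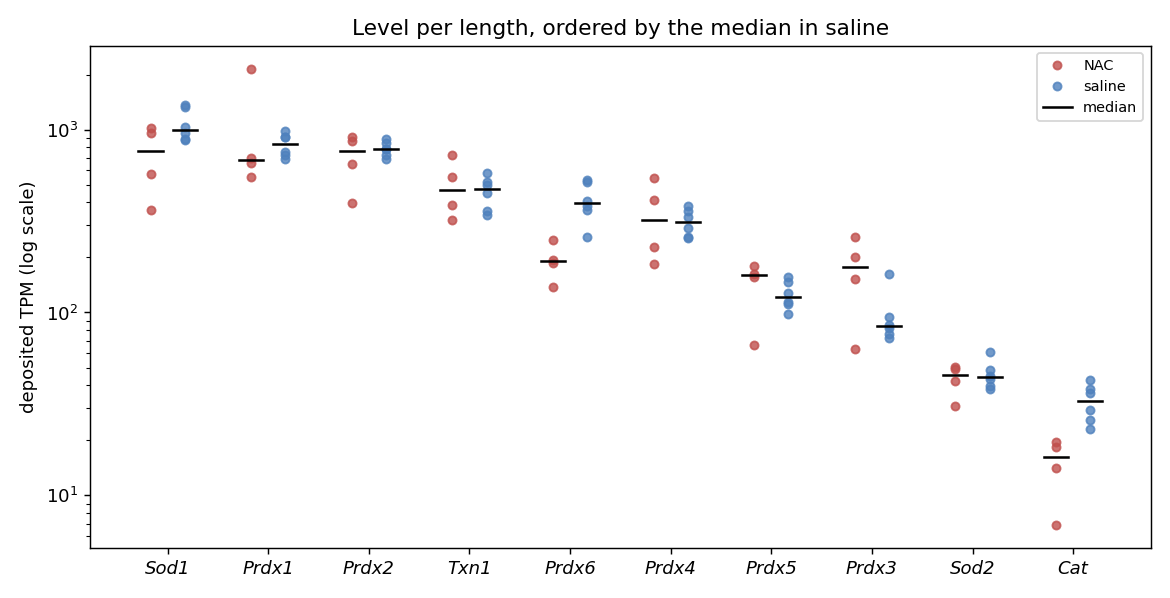
Deposited TPM (log axis) of the 10 genes in each NAC library (red) and saline library (blue), ordered by the median in saline, with medians as black lines. Sod1 has medians of 766 in NAC and 998 in saline, and Cat of 16.1 in NAC and 32.7 in saline.

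Setting NAC against saline compared transcripts between granulosa captures of the groups. These captures also differed in granulosa marker RNA, with sums of 4779 to 10697 CPM in NAC and 10202 to 38273 CPM in saline. By edgeR's quasi-likelihood test with Benjamini-Hochberg adjustment over all genes tested, 0 of the 10 genes passed an adjusted p of 0.05, where 0.0731% of all genes did (0.0548% lower and 0.0183% higher in NAC). DESeq2 called 2 of them, Prdx6 and Cat, where it called 4.61% of the 9869 genes it gave an adjusted p. Limma-voom with sample quality weights called 1, Prdx6, and 4.08% of all genes. Limma on log2(TPM + 1) and on log2(TPM + 0.1) called 0 of the 10, and 12 and 6 of all genes. At an unadjusted edgeR p under 0.05, 4 were lower in NAC (Prdx6, Cat, Sod1 and Prdx2), against 8.34% of all genes, and 1 was higher (Prdx3), against 7.82%. With a covariate for granulosa marker RNA, added after the data were seen, those counts were 0 lower and 0 higher. The share of all genes under that p was not computed with the covariate, so these counts cannot be set against it. The log2 folds (NAC over saline) had 5 negative and 5 positive values and a median of -0.08, beside a median of 0.02 over all 10945 genes. NAC and saline libraries did not overlap in CPM for 2 genes, Prdx6 and Cat, both lower in NAC, against 3.43% of all genes (5.38% in either direction). For 0 of the 10 were they apart and higher in NAC, against 1.96%.

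**Figure D2:**
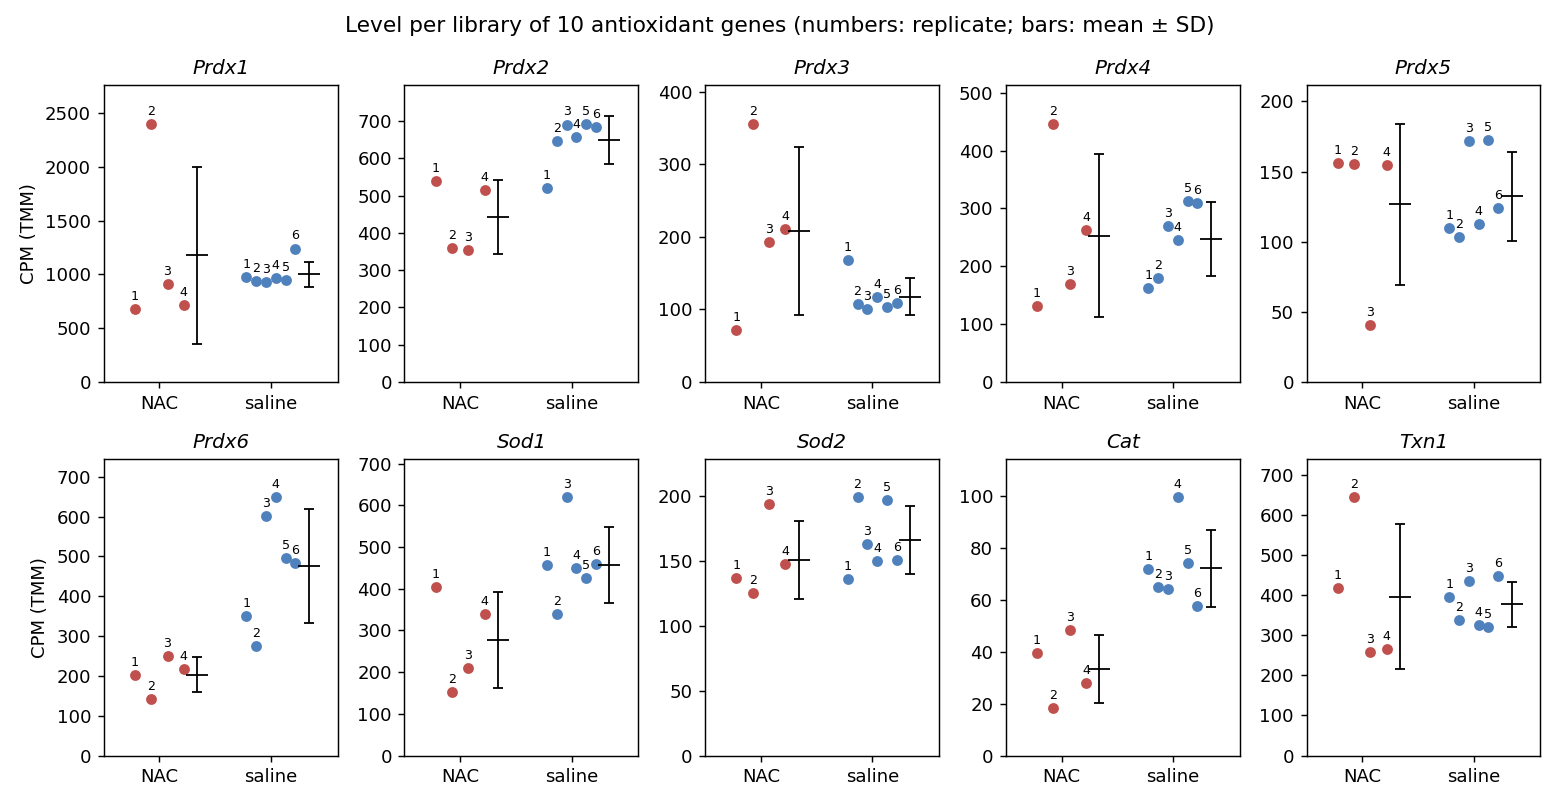
CPM (TMM) of each gene in the 4 NAC libraries (red) and 6 saline libraries (blue), with replicate numbers beside the points and the mean ± SD as black bars. The NAC points of Prdx6 (143 to 249.7) and Cat (18.4 to 48.3) all lie under the saline points, and NAC 2 is the highest point for Prdx1, Prdx3, Prdx4 and Txn1.

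Prdx6 (chromosome 1, 161240112 to 161251219 in GRCm38) encodes the peroxiredoxin with a single reactive cysteine, which also reduces oxidised phospholipids. It had 203, 143, 249.7 and 219 CPM in NAC replicates 1 to 4, against a lowest of 276, a median of 489.8 and a highest of 648 CPM in saline libraries. Every NAC library stood under every saline library, also in TPM (137 to 249 in NAC, 259 to 529 in saline). The value in NAC 3 rests on 31 reads (exact Poisson interval at 95%, 169.7 to 354.4 CPM). That interval holds the values of saline 1 and saline 2, 349.6 and 276 CPM. NAC libraries averaged 204 ± 44.7 CPM (SD, n = 4) against 476 ± 143 CPM for saline libraries (SD, n = 6), and the log2 fold was -1.24 (SE 0.30; adjusted p = 0.0835 by edgeR). Prdx6 passed with DESeq2 (adjusted p = 0.00444), with limma-voom (adjusted p = 0.0190) and in edgeR without a filter on low counts (adjusted p = 0.0229, with 1.06% of all genes called), and the 24 alternatives gave adjusted p from 0.00444 to 0.999. Its log2 fold was negative in each of them.

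The 6 libraries with the least granulosa marker RNA, all of NAC and 2 of saline, also had the least Prdx6. Saline 1 and saline 2, whose granulosa markers summed to 10202 and 13664 CPM, had 349.6 and 276 CPM of Prdx6. The other saline libraries, with marker sums of 33096 to 38273, had 484 to 648 CPM. NAC libraries, with marker sums of 4779 to 10697, had 143 to 249.7 CPM. With the granulosa marker score of each library as a covariate, the log2 fold of Prdx6 was -0.66 (adjusted p = 0.999 by edgeR). In such bulk captures, fewer granulosa cells and less RNA per cell cannot be told apart. With the oocyte score as a covariate the log2 fold was -1.32, and with the stroma score -1.12.

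Cat (chromosome 2, 103453849 to 103485160) encodes catalase, which breaks down hydrogen peroxide without a reductant. It was the lowest of the 10 genes and had 39.7, 18.4, 48.3 and 27.9 CPM in NAC replicates 1 to 4, against a lowest of 57.8, a median of 68.5 and a highest of 99.6 CPM in saline. No NAC library reached the saline range. Counts behind these values were small: 9 reads in NAC 2 and 6 in NAC 3, with exact Poisson intervals at 95% of 8.43 to 34.98 and 17.7 to 105 CPM, of which that of NAC 3 spans the whole saline range. NAC libraries averaged 33.6 ± 13.1 CPM (SD, n = 4) against 72.2 ± 14.7 CPM for saline libraries (SD, n = 6), and the log2 fold was -1.17 (SE 0.35; adjusted p = 0.133 by edgeR). DESeq2 gave an adjusted p of 0.0255, the lowest over all alternatives, and the highest was 0.999. Saline 1 and saline 2, the saline libraries with least granulosa marker RNA, had 72.0 and 65.0 CPM of Cat, inside the 57.8 to 99.6 CPM of the other saline libraries. With the granulosa score as a covariate its log2 fold was -0.96 (unadjusted p = 0.0526, adjusted p = 0.999 by edgeR). All of the 10 genes had that same adjusted p in this fit.

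**Figure D3:**
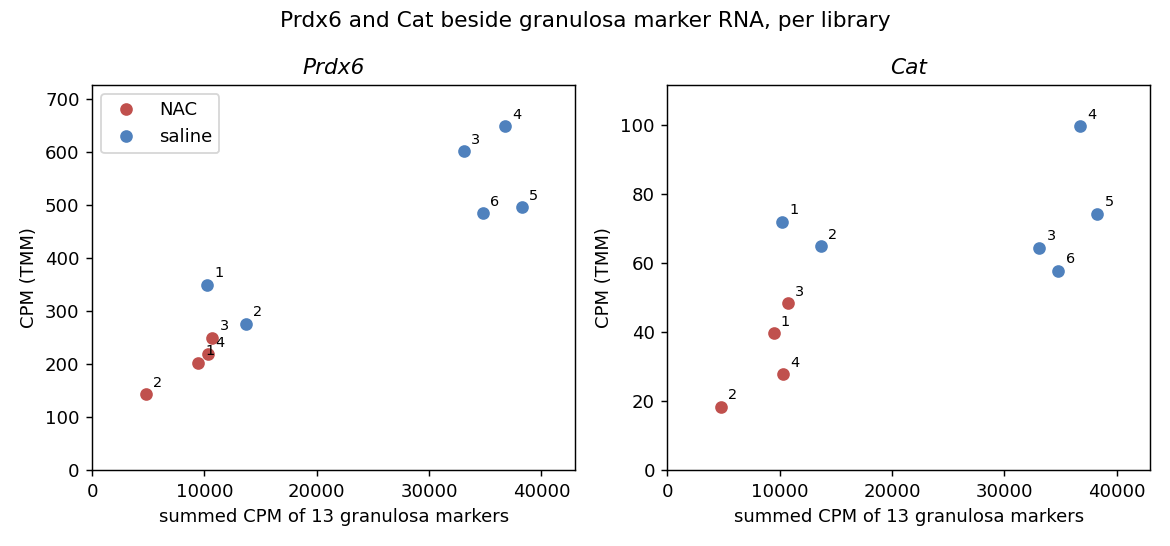
CPM (TMM) of Prdx6 and of Cat against the summed CPM of 13 granulosa markers in each library, NAC in red and saline in blue, with replicate numbers. Saline 1 and saline 2 lie near the NAC libraries on the marker axis, at 10202 and 13664 CPM, with 349.6 and 276 CPM of Prdx6.

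Prdx1 and Prdx2 are the abundant cytosolic peroxiredoxins with a pair of reactive cysteines. Prdx1 (chromosome 4, 116685544 to 116700822) had 675, 2402, 910.2 and 718 CPM in NAC replicates 1 to 4, against a lowest of 925, a median of 957 and a highest of 1241 CPM in saline. The saline libraries were close together, with an SD of 11.96% of their mean, while NAC 2 stood far above all others and the other 3 NAC libraries lay under the saline range. NAC libraries averaged 1176 ± 824 CPM (SD, n = 4) against 999.9 ± 119.6 CPM for saline libraries (SD, n = 6), and the log2 fold was 0.23 (SE 0.33; adjusted p = 0.752 by edgeR). Without NAC 2 the log2 fold was -0.41 (edgeR adjusted p = 0.386), and without NAC 2 and NAC 3 it was -0.56 (adjusted p = 0.228).

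Prdx2 (chromosome 8, 84969587 to 84974834), also the main peroxiredoxin of red blood cells, had 539, 360.4, 354 and 514 CPM in NAC replicates 1 to 4, against a lowest of 521, a median of 671 and a highest of 693 CPM in saline. The groups overlapped through NAC 1 and saline 1. NAC libraries averaged 442 ± 98.3 CPM (SD, n = 4) against 649 ± 65.5 CPM for saline libraries (SD, n = 6), and the log2 fold was -0.54 (SE 0.24; adjusted p = 0.271 by edgeR). On TPM the gene overlapped widely, with 395 to 914 in NAC and 693 to 885 in saline, and the log2 fold on log2(TPM + 1) was -0.22. TPM is corrected by an effective length, which for Prdx2 differed between libraries. The length implied by TPM was 682, 484, 833 and 676 bases in NAC replicates 1 to 4 and 737 to 870 in saline, so TPM and CPM need not order libraries alike. Erythroid markers summed to 856 CPM in NAC 4 and to 0 in NAC 2, and their part in these values was not tested.

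Prdx4 (chromosome X, 155323918 to 155340754), the peroxiredoxin of the endoplasmic reticulum, had 131, 446, 169 and 263 CPM in NAC replicates 1 to 4, against a lowest of 162, a median of 257 and a highest of 313 CPM in saline. NAC libraries lay on both sides of the saline range, NAC 2 above it and NAC 1 under it. NAC libraries averaged 252 ± 141 CPM (SD, n = 4) against 246 ± 64.0 CPM for saline libraries (SD, n = 6), and the log2 fold was 0.05 (SE 0.33; adjusted p = 0.962 by edgeR). Without NAC 2 the log2 fold was -0.39.

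In mitochondria, Prdx3 is the main peroxide-removing peroxiredoxin, and Prdx5 is shared between mitochondria, peroxisomes and cytosol. Prdx3 (chromosome 19, 60864051 to 60874556) had 72.1, 356, 193 and 211 CPM in NAC replicates 1 to 4, against a lowest of 101, a median of 108 and a highest of 168 CPM in saline. NAC 2, NAC 3 and NAC 4 were above every saline library, and NAC 1 was under every one. NAC libraries averaged 208 ± 116 CPM (SD, n = 4) against 118 ± 25.4 CPM for saline libraries (SD, n = 6), and the log2 fold was 0.82 (SE 0.35; adjusted p = 0.258 by edgeR). Without NAC 2 it was 0.38, without NAC 2 and NAC 3 it was 0.25, and with the granulosa score as a covariate it was 0.03. The value in NAC 3 rests on 24 reads.

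Prdx5 (chromosome 19, 6906697 to 6910106) had 155.8, 155.6, 40.3 and 154.7 CPM in NAC replicates 1 to 4, against a lowest of 103, a median of 118 and a highest of 173 CPM in saline. In 3 of the 4 NAC libraries the level was nearly the same and inside the saline range, and the low value of NAC 3 rests on 5 reads (exact Poisson interval at 95%, 13.1 to 94.0 CPM). NAC libraries averaged 127 ± 57.6 CPM (SD, n = 4) against 132 ± 31.6 CPM for saline libraries (SD, n = 6), and the log2 fold was 0.00 (SE 0.32; adjusted p = 0.997 by edgeR). Exons at the 5′ end of Prdx5 share 409 bases with Trmt112, a methyltransferase cofactor gene on the opposite strand. Trmt112 had 425 reads in NAC and 1764 in saline, and Prdx5 had 585 in NAC and 1605 in saline. Whether counting used the strand is not given in the sources used here, so reads of these genes cannot be told apart in that stretch.

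Sod1 (chromosome 16, 90220754 to 90226329) encodes the cytosolic copper-zinc dismutase. It had 403, 154, 209 and 340.0 CPM in NAC replicates 1 to 4, against a lowest of 339, a median of 453 and a highest of 619 CPM in saline. NAC 1 and NAC 4 lay in the saline range, at its lower end, and the shallow libraries NAC 2 and NAC 3 far under it, with 75 and 26 reads. NAC libraries averaged 277 ± 115 CPM (SD, n = 4) against 458 ± 90.9 CPM for saline libraries (SD, n = 6), and the log2 fold was -0.71 (SE 0.30; adjusted p = 0.252 by edgeR). Without NAC 2 and NAC 3 the log2 fold was -0.34 (edgeR adjusted p = 0.508), and with the granulosa score as a covariate it was -0.33.

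Sod2 (chromosome 17, 13006846 to 13040063), the manganese dismutase of the mitochondrial matrix and a known FOXO-responsive gene, had the smallest spread of the 10 genes over all libraries, 0.23 on the log2 CPM scale. It had 137, 125, 193 and 148 CPM in NAC replicates 1 to 4, against a lowest of 136, a median of 157 and a highest of 199 CPM in saline, and the groups overlapped. NAC libraries averaged 151 ± 29.9 CPM (SD, n = 4) against 166 ± 26.3 CPM for saline libraries (SD, n = 6), and the log2 fold was -0.16 (SE 0.25; adjusted p = 0.774 by edgeR). With library size alone as the scaling it was 0.02, under which the median of all genes was 0.19.

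Txn1 (chromosome 4, 57943373 to 57956411) encodes the thioredoxin that reduces the cytosolic peroxiredoxins. It had 418, 643, 258 and 266 CPM in NAC replicates 1 to 4, against a lowest of 319.8, a median of 367 and a highest of 446 CPM in saline. NAC 2 stood above the saline range, NAC 3 and NAC 4 stood under it, and NAC 1 within it. NAC libraries averaged 396 ± 180.2 CPM (SD, n = 4) against 377 ± 56.6 CPM for saline libraries (SD, n = 6), and the log2 fold was 0.08 (SE 0.28; adjusted p = 0.908 by edgeR). Without NAC 2 it was -0.26. NAC 2 was the highest of the 10 libraries for 4 of the 10 genes, Prdx1, Prdx3, Prdx4 and Txn1, against 24.1% of all genes tested.

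**Figure D4:**
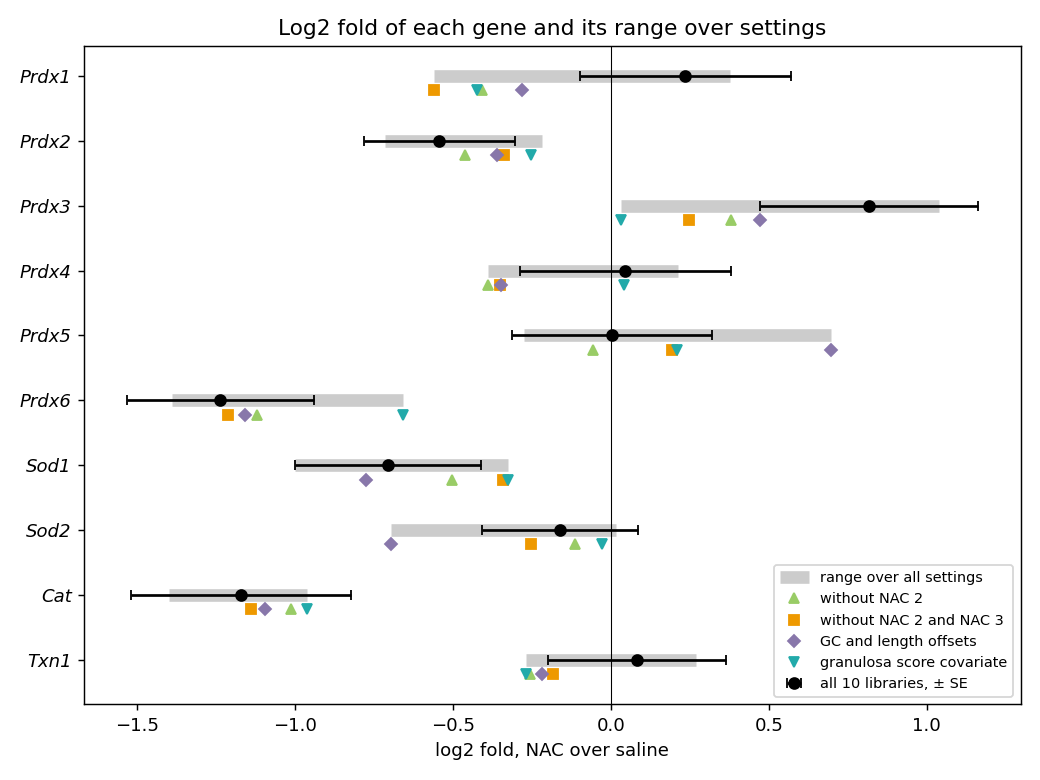
Log2 fold (NAC over saline) of each gene with its SE (black), the range over all settings (grey), and 4 settings by symbol. The bars of Prdx6 (-1.39 to -0.66) and Cat (-1.40 to -0.96) stay left of 0, while those of Prdx1, Prdx4, Prdx5, Sod2 and Txn1 cross it.

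Within the peroxiredoxin family, the shares of single genes had wider ranges among the 4 NAC libraries for Prdx1 to Prdx5, and a wider range among the 6 saline libraries for Prdx6. The 6 genes summed to 1731 to 3906 TPM in NAC and 2385 to 2754 TPM in saline. Prdx1 made up 27.2%, 55.2%, 40.4% and 25.2% of that sum in NAC replicates 1 to 4, and 28.0% to 36.1% in saline. Prdx6 made up 9.54%, 3.51%, 10.8% and 9.52% in NAC, and 10.3% to 21.2% in saline. A share does not depend on how libraries are scaled to each other, but on TPM it does depend on effective lengths, which differed between libraries. For Prdx6 the groups met at 10.8% in NAC 3 and 10.3% in saline 2. Prdx3 made up 3.10% to 8.85% in NAC and 2.92% to 6.05% in saline, and Prdx5 made up 3.84% to 8.03% in NAC and 4.01% to 6.12% in saline. For Prdx4 the ranges were close, 9.13% to 15.7% in NAC and 9.59% to 15.1% in saline.

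**Figure D5:**
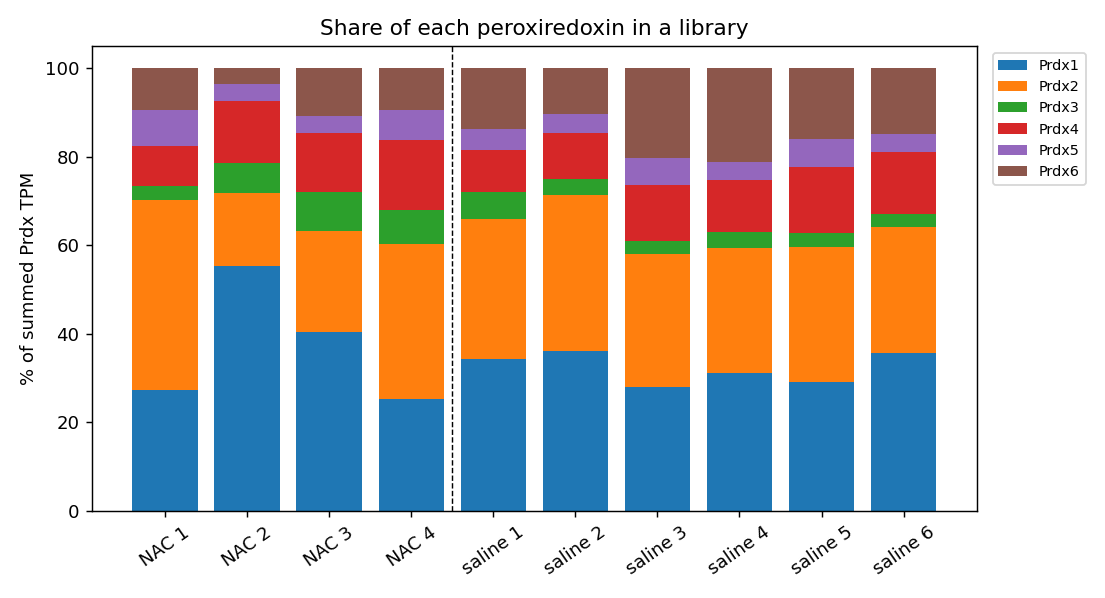
Share of each peroxiredoxin in the summed deposited TPM of the 6 genes (%), 1 bar per library, NAC left of the dashed line and saline right of it. Prdx1 takes 55.2% in NAC 2 and 28.0% to 36.1% in saline libraries.

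Log2 folds also differed by base composition over the whole table. In 4 classes of genes of equal size, from low to high GC, medians were 0.44, 0.15, -0.18 and -0.41. Prdx6 (48.9% GC) and Cat (48.7% GC) belong to the second class, whose median was above 0, and their log2 folds fitted with GC and length offsets were -1.16 and -1.10. Prdx1 and Sod2 belong to the lowest class, and their values with these offsets were -0.28 and -0.70. Prdx5, in the highest class, had 0.70, and Prdx3 had 0.47. None of the 10 passed in edgeR with these offsets.

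Processed pseudogenes with near-identical sequence were at or near 0 reads. Those of Prdx1 (3, up to 98.3% identical over 597 bases), Sod1 (1, 97.8% over 465 bases) and Txn1 (1, 95.8% over 309 bases) were listed at 0 reads in every library. The copy of Prdx2, Tdpx-ps1 (96.3% over 597 bases), had 1.02 reads in all. Stretches of 200 to 215 bases of Sod2 were 90% to 92.6% identical to 10 other genes. The 7 of these with a row held 2110 reads in NAC and 4745 in saline over their whole length, where Sod2 held 549 in NAC and 2009 in saline, and how reads of the shared stretches were divided was not tested. Apart from the exon bases shared with Trmt112, no copy of Prdx5 was found, and no copy was found for Prdx3, Prdx4, Prdx6 or Cat. Prdx2 also shares 177 exon bases with Rnaseh2a and 173 with Junb, both on the opposite strand.

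Partners of these enzymes were described by 7 lists, of which 62 genes were tested. None passed in edgeR over all genes, while DESeq2 and limma-voom each called 2 of the 62, of which Tmx2 was lower in NAC. At an unadjusted edgeR p under 0.05, 9 were lower in NAC and 1 was higher, against 8.34% and 7.82% of all genes. The thioredoxin cycle list had 6 negative and 2 positive log2 folds with a median of -0.44. In it Txnrd1, the cytosolic thioredoxin reductase, ranged over 50.5 to 137 CPM with NAC against 97.5 to 151 CPM with saline (log2 fold -0.83; adjusted p = 0.223 by edgeR). Txnrd2, its mitochondrial counterpart, averaged 10.2 ± 7.06 CPM with NAC against 30.5 ± 9.75 CPM with saline (log2 fold -1.62, adjusted p = 0.224 by edgeR). Nucleoredoxin, Nxn, had a log2 fold of -0.98. The lowest NAC values of Txnrd2 and Nxn were 0 and 8.05 CPM. All 4 genes of the list around the dismutases were negative, with a median of -0.33. Ccs, the chaperone that loads copper into Sod1, averaged 29.5 ± 23.6 CPM with NAC against 82.2 ± 27.1 CPM with saline (log2 fold -1.27; adjusted p = 0.199 by edgeR). The lowest NAC value of Ccs was 8.05 CPM. Atox1, another copper chaperone gene, and Sod3, the extracellular dismutase, had log2 folds of -0.29 and -0.37.

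Genes that make superoxide or peroxide were divided, with 7 negative and 5 positive values among 12 tested and a median of -0.36. Acox3, a peroxisomal oxidase, and Smox, spermine oxidase, had log2 folds of -1.46 and -1.12, and the lowest NAC value of each was 0 CPM. Of 18 peroxisome import and biogenesis genes, 8 were negative and 10 positive (median 0.19). Pex14, a docking protein of the import pore, had a log2 fold of -1.13 and a lowest NAC value of 2.05 CPM. The log2 folds of Pex13 and Pex19 were 0.77 and -0.65.

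The disulfide enzymes of the endoplasmic reticulum had 8 negative and 3 positive values and a median of -0.30. Tmx2, a membrane thioredoxin-like protein gene, averaged 47.4 ± 20.1 CPM with NAC (SD, n = 4) against 114 ± 19.0 CPM with saline (SD, n = 6), and its log2 fold was -1.30 (SE 0.33; adjusted p = 0.0970 by edgeR). Pdia6 and P4hb, protein disulfide isomerases, had log2 folds of -0.56 and -0.44. Sestrin and methionine sulfoxide reductase genes had 2 negative and 3 positive values among 5 tested (median 0.37). Msra was at -1.10, Sesn2 at -1.18 and Sesn1 at 0.67, and the lowest NAC values of Msra and Sesn2 were 8.05 and 0 CPM. Srxn1, which encodes the sulfiredoxin that repairs over-oxidised peroxiredoxins, was in the same list but did not pass the count filter, so its change was not tested. The 4 glutaredoxins had a median of -0.02, with Glrx5 at -0.85, Glrx3 at -0.37 and Glrx2 at 0.34.

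For each gene, the gene with the most similar profile over the 10 libraries was found among 9543 genes, by the root-mean-square difference of centred log2 CPM. Nearest to Prdx6 was Fth1, ferritin heavy chain, with a difference of 0.15 where Prdx6 itself varied by 0.70 about its mean. For Cat it was Lasp1, an actin-binding protein gene (0.21, against 0.67), and for Sod1 it was Sgce, a sarcoglycan gene (0.16, against 0.56). Prdx1 was closest to Mdh1, cytosolic malate dehydrogenase (0.14), Prdx2 to Dync1h1 (0.12), Prdx3 to Pogk (0.21), Prdx4 to Gins4 (0.21) and Prdx5 to Tmem208 (0.21). Txn1 was closest to Rbx1, a ubiquitin ligase subunit gene (0.15), and Sod2 to Xrcc6, a DNA repair gene (0.16, against a spread of 0.23).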

How the data were processed

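Each library had its own gene-level table from the authors. Salmon and GRCm38 are named in the submitters' processing notes; neither versions nor the annotation are given. Per the file headers the deposited tables hold estimated counts, which need not be whole, TPM, and lengths. The 1548 rows named by a transcript took 0.496% to 0.638% of reads and were left out. For Prdx3, Sod1, Sod2 and Txn1 the deposited TPM followed reads over deposited effective length; for the other 6 genes TPM implied longer effective lengths (for Prdx6, 913 to 1237 bases against 125 to 163 listed), so levels between genes were read from TPM.

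After rounding, estimated counts went into edgeR 4.0.16 (R 4.3.3; quasi-likelihood, robust, TMM factors, default filter), NAC over saline in all 10 libraries, with Benjamini-Hochberg adjustment over 10945 genes. CPM use the TMM factors; SE are the log2 fold over the root of F. Alternatives used DESeq2 1.42.0, limma 3.58.1 (also on log2(TPM + 1) and log2(TPM + 0.1)), mgcv 1.9.3 for offsets, marker scores, other factors and filters, a replicate block and each library left out. The granulosa score and the counts at an unadjusted p were added after seeing the data. Positions and copies (blastn, at least 90% identity over 200 bases) came from GENCODE M21 (GRCm38).

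The genes and lists were chosen with earlier results of these data known. Named besides the 10 genes and their copies were up to 3 tested genes of each partner list with the smallest unadjusted p, and the nearest profile of each gene with a mean of at least 10 CPM; Trmt112, Rnaseh2a, Junb and Srxn1 were named after their values were seen. Results that need withheld items are not reported here. Poisson intervals cover counting error only: reads amplified without molecular identifiers do not count molecules.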

Additional observations from a re-analysis of the deposited data

Results flagged for a closer look

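By the gap to the next library over the range of the group, values of single libraries stood apart in 5 of 20 groups examined. The cut-off allows about 1 in 20 for independent, normally distributed values. CPM of genes from the same libraries need not meet that, and the share over all genes was not computed. Prdx1 had 2402 CPM in NAC 2, far above the other NAC libraries. Prdx5 had 40.3 CPM in NAC 3, where the other NAC libraries had 154.7 to 155.8. In saline, Prdx1 was highest in saline 6 with 1241 CPM, Prdx3 was highest in saline 1 with 168 CPM, and Prdx2 was lowest in saline 1 with 521 CPM.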

How the results depend on the processing

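In all 24 alternatives the log2 fold was negative for Prdx6 (-1.39 to -0.66), Cat (-1.40 to -0.96), Sod1 (-1.001 to -0.33) and Prdx2 (-0.72 to -0.22) and positive for Prdx3 (0.03 to 1.04). The count of the 10 genes called was 2 with DESeq2, 1 with limma-voom, 1 without the low-count filter and 0 in the other 21. Over all genes, 8 were called, against 455 with DESeq2, 447 with limma-voom, 226 without the filter, 15 with GC and length offsets, 2 without NAC 2 and NAC 3, and 1 each with the oocyte score, the granulosa score and the replicate block. These 8 were 6 lower and 2 higher in NAC, against 11 lower and 1 higher on log2(TPM + 1). Leaving out 1 library gave 1 to 58 genes called, and each of the 10 omissions moved the count by over 1.5 times. The count lower at an unadjusted p was 2 with library size alone, log2(TPM + 0.1), the oocyte score and the replicate block, 0 with the granulosa score, and 2 to 4 with 1 library left out (2 without NAC 2 or NAC 3). The count higher was 0 with limma-voom, both TPM scales, the granulosa score, the replicate block and without NAC 2 and NAC 3, and 0 to 1 with 1 library left out (1 without NAC 1 or saline 1, and 0 without any other). For these alternatives the share of all genes at an unadjusted p was not computed, so a moved count may not be particular to the 10 genes. Same-numbered deviations had correlations of -0.01 to 0.20. Of 4 numbers shared by the groups, 2 NAC libraries and 1 saline library were closest to their own number. With so few numbers these values cannot decide whether the replicate numbers pair the libraries.

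Signs turned as follows, and the cause was not tested. With limma-voom, Prdx1 had -0.26, Prdx4 -0.36, Prdx5 -0.080 and Txn1 -0.25. With GC and length offsets, Prdx1 had -0.28, Prdx4 -0.35 and Txn1 -0.22. With the stroma score, Prdx4 had -0.12, Prdx5 -0.28 and Txn1 -0.10, and with the granulosa score Prdx1 had -0.43 and Txn1 -0.27. Without NAC 2 and NAC 3, Prdx1 had -0.56, Prdx4 -0.35 and Txn1 -0.19. Prdx5 had -0.026 without the filter, and Sod2 had 0.015 with library size alone, a scaling that put the median of all genes at 0.19, against 0.02; log2(TPM + 0.1) put it at -0.14. With 1 library left out the log2 folds were -0.41 to 0.34 for Prdx1 (negative without NAC 2), -0.39 to 0.20 for Prdx4 (negative without NAC 2, NAC 4 or saline 1, 2 or 4), -0.17 to 0.18 for Prdx5 (negative without NAC 1, 2 or 4 or saline 1, 2, 4 or 6) and -0.26 to 0.15 for Txn1 (negative without NAC 1, NAC 2, saline 4 or saline 5). Depth limits Prdx5 and Cat most, with 5 and 6 reads in NAC 3.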

Other observations

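Ratios between genes within a library do not depend on how libraries are scaled to each other. On TPM they do depend on effective lengths, which differed between libraries. On TPM, Prdx1 was 2.85, 15.7, 3.73 and 2.65 times Prdx6 in NAC replicates 1 to 4, and 1.38 to 3.51 times in saline libraries. Between the cytosolic and mitochondrial peroxiredoxins, Prdx1 was 8.76, 8.34, 4.56 and 3.28 times Prdx3 in NAC replicates 1 to 4, and 5.66 to 11.8 times in saline. Txn1 was 1.79 to 6.27 times Txn2, the mitochondrial thioredoxin, in NAC and 1.28 to 2.80 times in saline, with NAC 2 the highest of all libraries. These ratios were not tested.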
